A study of Mus musculus with 2 samples.

Results

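The endothelial genes described here are 35 transcripts by which the cells lining blood and lymph vessels are usually recognised, from the adhesion protein Pecam1 to the nitric oxide synthase Nos3. They were chosen by symbol from a list of endothelial genes, with earlier results of these data known. All 35 were among the 20923 genes tested. Gpr116 is listed under its current symbol Adgrf5. None of the 35 differed between mutant and control ureters past the test. With the normalisation used here 34 had a mean ratio smaller in size than 0.3 on the log2 scale. The tight junction gene Cldn5 was the exception, with a ratio of 0.62 on one array and 0.54 on the other. The transcription factor Erg lay just inside that bound at -0.299, but at -0.61 with the processed signals of the scanner and -0.62 in the authors' deposited table. Vwf, a clotting factor, was 2.94-fold higher in the mutant on one array and 2.52-fold lower on the other.

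RNA of ureters dissected from NMRI mouse embryos at E13.5 was hybridised to 2 two-colour Agilent arrays, each with 1 mutant and 1 control pool. The control genotype was Fgfr1(fl/?);Fgfr2(fl/?), without Cre, and the mutant genotype was Pax2-cre/+;Fgfr1(fl/?);Fgfr2(fl/fl), where "?" stands for either a wild-type or a floxed allele. Fgfr1 and Fgfr2 encode receptors for fibroblast growth factors, and ureters of both Fgfr1 genotypes entered the mutant pools together. The sources used here give neither the number of embryos in a pool nor the ureter cells in which the Cre acted. The female pools shared array 1, where Cy5 marked the mutant and Cy3 the control. The male pools shared array 2, where Cy5 marked the control and Cy3 the mutant. The question is whether vessel genes differed in ureters whose genotype removes Fgfr2, and 1 or both copies of Fgfr1, in the cells with the Cre.

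The pools were compared with their labels. On each array 174979 spots were read, 4 per probe, and 67.9% to 77.0% of probes were well above background in a pool, with no saturated spot. All 35 endothelial genes were well above background in all 4 pools. The targeted Fgfr2 was not lower in the mutant at its brightest probe (ratios 0.27 and 0.06), a value that checks the deletion only if that probe lies inside the floxed segment, which the labels do not locate. Fgfr1, also floxed, had 0.27 and -0.44, with the same limit. Xist, a transcript made in female cells from the silenced X chromosome, stood at 12.42 in both female pools, at 9.996 in the male control pool and at 8.39 in the male mutant pool. The male control thus held 18.6% of the Xist level of the female control, and the male mutant 6.14% of that of the female mutant. Of the Y-linked genes, Ddx3y stood at 11.57 in the male control and 11.88 in the male mutant, and Eif2s3y at 11.51 and 11.22, with both at 8.15 to 8.44 in the female pools. Whether the pool labelled male control held some female tissue was not tested, and all ratios of array 2 rest on that pool, so the ratios of the 35 genes and the medians of the lists are given for array 1 alone as well as for array 2. Of 11 genes of ureter epithelium 10 were measured, and of 8 genes of ureter mesenchyme 8.

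Endothelial cells line every vessel, and their junctions, built from adhesion and claudin proteins, hold the lining closed. They take signals through VEGF receptors, which drive vessel growth, and through the angiopoietin receptor, which steadies vessels, and their identity rests on transcription factors of the ETS and SoxF families. The vessels of the ureter run in the mesenchyme around its epithelial tube. In RNA of a whole organ, fewer endothelial cells and less RNA per endothelial cell cannot be told apart.

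The probes read short stretches of the transcripts, and 4 of them are shown. Tek and Tie1 encode a pair of related receptors, so their probes are set against each other to show how far the probe letters separate them. In the best ungapped match 39 of 57 overlapping bases were identical (68.4%), in runs of at most 8 bases, and the identical bases are in capitals. The dimmer probes of Kdr and Nos3 are shown because these genes were read by a second probe whose ratios are compared below. All are 60 bases long, read 5′ to 3′ from the array design, which places the Tek probe at chr4:94540624-94540683 and the Tie1 probe at chr4:118144132-118144191 on mm9.
Tek probe: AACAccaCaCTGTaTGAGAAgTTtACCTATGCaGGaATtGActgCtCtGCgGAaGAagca
Tie1 probe: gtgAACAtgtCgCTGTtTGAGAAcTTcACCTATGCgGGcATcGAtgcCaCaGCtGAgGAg
Kdr dimmer probe: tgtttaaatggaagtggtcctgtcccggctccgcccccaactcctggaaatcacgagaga
Nos3 dimmer probe: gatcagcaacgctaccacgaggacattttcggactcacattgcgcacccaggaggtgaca

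Ratios are log2 values of mutant over control. They are given first for array 1 and then for array 2, or as the mean ± SD of the 2 arrays. Levels are normalised log2 intensities and are compared within a probe (sums over a list weigh its brightest probes most), in the order female control, female mutant, male control, male mutant. Positions are those of the probe in mm9 coordinates, taken from the annotation of the array design. A gene was called at an adjusted p below 0.05 in limma, with p-values adjusted over all genes tested. By that rule 6 genes of 20923 were called (0.0287%), all higher in the mutant, and 0 of the 35 endothelial genes, whose adjusted p in limma was 0.807 for Cldn5 and 0.99997 for each of the others. At an unadjusted p below 0.05 there was 1 endothelial gene, Cldn5, against 845 genes of the whole array (4.04%).

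Taken by sign, 11 of the 35 were above 0 on both arrays, 5 were below 0 on both and 19 had opposite signs. Over all genes tested the shares were 22.1% higher, 21.4% lower and 56.5% opposite, so that 11 of 35 (31.4%), 5 of 35 (14.3%) and 19 of 35 (54.3%) lie near that background. Median centring in place of loess gave 3 higher and 15 lower, beside 15.5% and 38.1% of all genes, and moved the median of all genes to -0.08. The split therefore depended on the normalisation, with 7 and 7 from the processed signals of the scanner and 8 and 8 in the authors' deposited table. The median ratio of the 35 was -0.01, beside 0.00 for all genes tested, and the median size of the ratio regardless of sign was 0.09 in both. With 2 arrays the 95% interval of a gene had bounds a median of 0.36 from its mean, and for 27 of the 35 the interval lay within 1.5-fold in either direction.

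**Figure D1:**
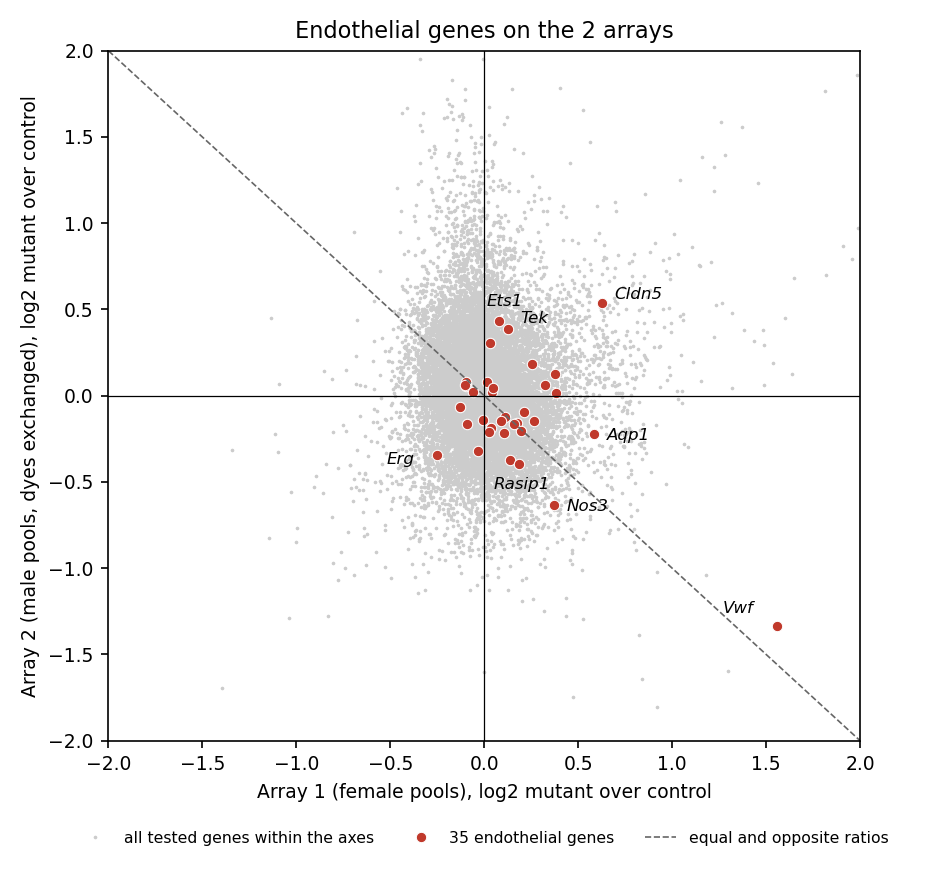
Log2 mutant over control ratio of each gene on array 1 (female pools, x axis) and array 2 (male pools, dyes exchanged, y axis). Red points are the 35 endothelial genes and grey points the tested genes within the axes. Cldn5 lies at 0.62 and 0.54, most endothelial genes lie within 0.5 of 0 on each axis, and Vwf lies near the dashed line of equal and opposite ratios at 1.56 and -1.33.

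The genes of junctions and the cell surface held the gene with the largest mean ratio. Claudin-5 (Cldn5), the main tight junction protein of endothelium, had levels of 10.37, 10.997, 10.96 and 11.50 in the 4 pools. Both mutant pools were above both control pools, though the male control pool was at nearly the level of the female mutant pool. The ratios were 0.62 and 0.54 (0.58 ± 0.06, n = 2 arrays), a 1.496-fold mean difference with a 95% interval of 1.18-fold to 1.90-fold. That missed the limma threshold (adjusted p = 0.807), and 1.396% of all genes tested had a mean ratio of larger size. Its single spots ranged from 0.54 to 0.68 on array 1 and from 0.46 to 0.61 on array 2. The probe lies at chr16:18778046-18778105.

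Pecam1, an adhesion protein of endothelial junctions that leukocytes and platelets also carry, had levels of 8.29, 8.67, 8.67 and 8.68. The female control pool was below the other 3, which were nearly equal, and the ratios were 0.38 and 0.01 (0.20 ± 0.26). VE-cadherin (Cdh5), the adhesion protein that defines endothelial junctions, stood at 11.42, 11.56, 11.36 and 10.99. Here the male mutant pool alone was low, and the ratios of 0.14 and -0.37 had opposite signs (-0.12 ± 0.36).

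Plvap, which forms the diaphragms of endothelial fenestrae, had levels of 11.28, 11.25, 11.43 and 11.11. It was the only one of the 35 with both mutant pools below both control pools, by ratios of -0.03 and -0.32. Of all genes tested 11.5% were ordered in that way, and 12% had both mutant pools above both controls, as did 6 of the 35, namely Pecam1, Cldn5, Tek, Ets1, Egfl7 and Clec14a. The remaining surface genes had small ratios. Esam, an immunoglobulin-type junction protein, had 0.01 and 0.08, and the sialomucin Emcn had 0.03 and 0.31. Icam2, a ligand for leukocyte integrins, had 0.26 and -0.14, and the sialomucin Cd34, also on blood progenitors, had 0.21 and -0.10.

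Among the growth factor receptors, Kdr and Tek had ratios of opposite sign to each other at their brightest probes. The dimmer Kdr probe, compared below, had 0.33 and -0.33. Kdr, the main signalling receptor for VEGF, stood at 12.34, 12.25, 12.12 and 11.95. The female control pool was highest and the male mutant pool lowest, but the female mutant was above the male control, and the ratios were -0.09 and -0.17 (-0.13 ± 0.05). Tek, the angiopoietin receptor, stood at 8.55, 8.68, 8.52 and 8.91. Both mutant pools were above both controls, with ratios of 0.13 and 0.39 (0.26 ± 0.18). Its relative Tie1 had -0.10 and 0.06. Flt1, a receptor that binds VEGF tightly and limits its action, had -0.09 and 0.08. Flt4, the VEGF receptor of lymphatic endothelium, had 0.04 and -0.19. Its only probe was dim in all pools, at 6.71, 6.75, 6.73 and 6.54, so these ratios say little. Endoglin (Eng), a co-receptor for TGF-beta ligands, had 0.17 and -0.16.

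Of the transcription factors, Erg had the lowest mean ratio of all 35 and Ets1 the second highest, each at its brightest probe. Erg, an ETS factor that maintains endothelial identity, stood at 7.54, 7.29, 7.13 and 6.78. The mutant pool was the lower one on each array, by -0.25 and -0.34 (-0.30 ± 0.06), but the female mutant pool was above the male control. Its mean was -0.61 with the processed signals of the scanner and -0.62 in the authors' deposited table, again without passing the limma test. A second Erg probe, with no spot well above background, was not tested and had -0.07 and -0.07. Ets1, an ETS factor also present in mesenchyme and lymphocytes, stood at 11.005, 11.08, 11.03 and 11.46. Only the male mutant pool was clearly above the rest, and the ratios were 0.08 and 0.43 (0.26 ± 0.25). A dimmer Ets1 probe, compared below, had 0.18 and -0.13. Neither Erg nor Ets1 passed the test. The third ETS factor, Fli1, had 0.03 and -0.21. The SoxF factors, which act in arterial and lymphatic specification, all lay between -0.15 and 0.11, with -0.01 and -0.14 for Sox7, 0.11 and -0.12 for Sox17, and 0.09 and -0.15 for Sox18.

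Of the secreted and matrix proteins 3 were higher on both arrays. Egfl7, a secreted protein of the endothelial matrix, stood at 14.21, 14.58, 14.34 and 14.47. Both mutant pools were above both controls, with ratios of 0.37 and 0.13 (0.25 ± 0.18). Mmrn2, a matrix glycoprotein of vessels, stood at 12.11, 12.44, 11.96 and 12.03, so that the pools overlapped, with ratios of 0.33 and 0.06 (0.19 ± 0.19). Its relative Mmrn1, which platelets also store, had 0.04 and 0.02. Esm1, a proteoglycan of sprouting tip cells, was slightly lower on both arrays, with -0.13 and -0.06.

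Of the other surface proteins, Clec14a, a lectin-type receptor of endothelium, stood at 7.71, 7.97, 7.69 and 7.87. Both mutant pools were above both controls and the arrays were close, with ratios of 0.26 and 0.18 (0.22 ± 0.05). A second Clec14a probe was too dim to be tested and had 0.23 and -0.23. The water channel Aqp1, which red cells also carry, stood at 10.40, 10.98, 10.90 and 10.68. The female control pool was the low one, and the ratios of 0.59 and -0.22 had opposite signs (0.18 ± 0.57). The adrenomedullin receptor partner Ramp2 had 0.049 on array 1 and 0.045 on array 2, the closest pair of the 35. Cd93, a receptor related to Clec14a, had -0.10 and 0.06, the adhesion receptor Adgrf5 had 0.19 and -0.21, and Lyve1, the hyaluronan receptor of lymphatic endothelium, had -0.06 and 0.02.

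All 4 intracellular genes were higher in the mutant on array 1 and lower on array 2. Nos3, the nitric oxide synthase of endothelium, stood at 10.63, 11.005, 11.02 and 10.38. The female mutant and the male control were close to each other and above the other pools, which gave ratios of 0.37 and -0.63 (-0.13 ± 0.71). Rasip1, an effector of small GTPases needed to open vessel lumens, stood at 10.50, 10.69, 10.81 and 10.41, with ratios of 0.18 and -0.40 (-0.11 ± 0.41). Ushbp1 had 0.10 and -0.22, and Apold1, an early response gene of endothelium, stood at 8.80, 8.96, 8.80 and 8.64, with ratios of 0.16 and -0.16.

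**Figure D2:**
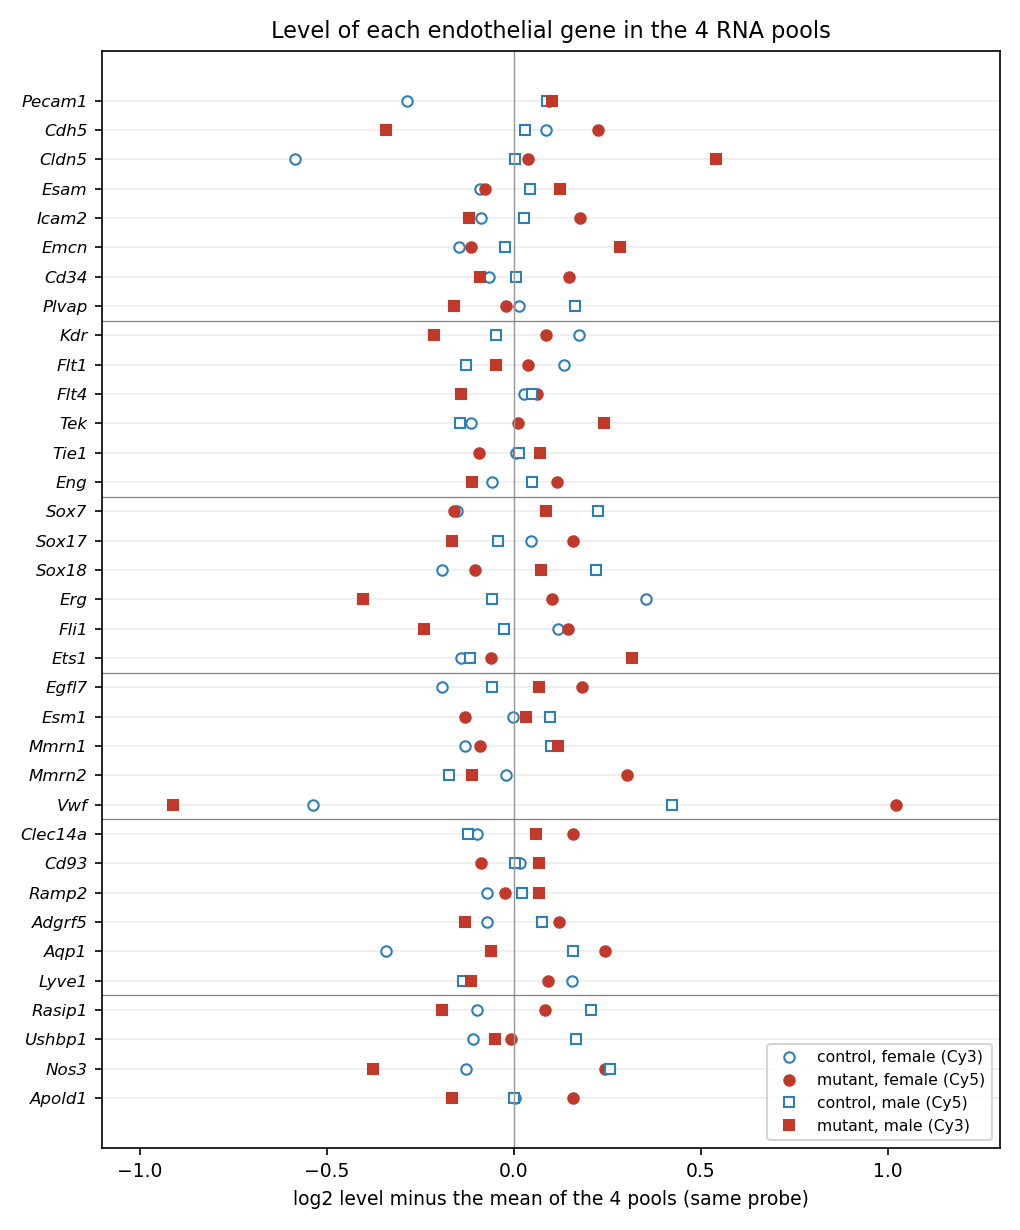
Normalised log2 level of each endothelial gene in the 4 RNA pools, drawn as the distance from the gene's own mean over the pools, with lines between the groups by role. Open symbols are control and filled symbols mutant pools, circles female and squares male. The filled symbols lie to the right of both open ones for Cldn5, and the 4 pools of Vwf spread from 8.01 to 9.94, the widest of the 35.

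Vwf, the clotting factor that endothelial cells and platelets store, was the gene on which the arrays differed most. It stood at 8.38 in the female control, 9.94 in the female mutant, 9.34 in the male control and 8.01 in the male mutant. The female mutant and the male control, which are both Cy5 pools, were the high ones. The ratios were 1.56 and -1.33 (0.11 ± 2.04), and 1 gene of 20923 had a larger difference between the arrays. Single spots lay between 1.43 and 1.68 on array 1 and between -1.51 and -1.17 on array 2. Of all genes tested 0.0956% had opposite ratios of at least 1.5-fold on each array, as did 1 of the 35.

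Genes of platelets and megakaryocytes, the other cells that store Vwf, were measured beside it. Of 6 such genes reported here 4 were tested, and all 4 were higher in the mutant on array 1 and lower on array 2, while Gp1ba and Itga2b were not tested. Pf4, a chemokine of platelet granules, stood at 11.25, 11.69, 12.36 and 11.19, with ratios of 0.44 and -1.17. Gp9, a subunit of the platelet receptor for Vwf, stood at 7.47, 7.94, 9.16 and 7.41, with ratios of 0.47 and -1.75. In these genes the male control pool was the highest, whereas for Vwf the female mutant was. Ppbp, another platelet chemokine, had 0.26 and -1.18, and Gp6, the platelet receptor for collagen, had 0.09 and -0.29. The median of the 4 genes was -0.41 (0.35 and -1.18 by array). The summed linear level of the 4 genes was 2872 and 3842 in the female control and mutant, and 6308 and 2762 in the male ones. Their part in the Vwf result was not tested.

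**Figure D3:**
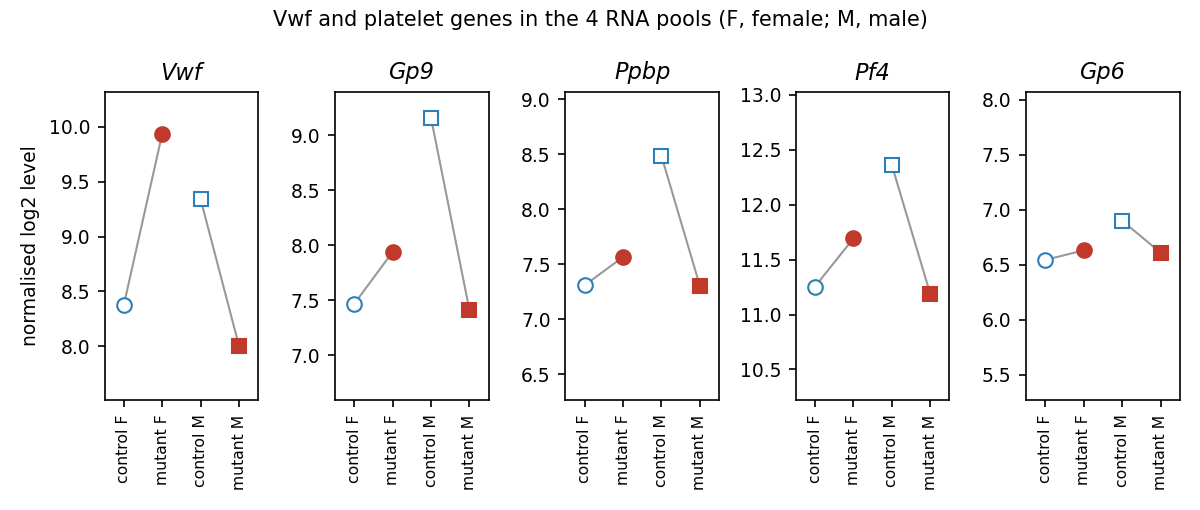
Normalised log2 level of Vwf and of 4 platelet genes in the 4 RNA pools, with 1 panel per gene, the same height of scale in each and lines joining the pools of 1 array. All 5 genes are higher in the mutant among the female pools and lower in it among the male pools, and the male control is the highest pool for the platelet genes but not for Vwf, where the female mutant is at 9.94.

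Because the dyes were exchanged, opposite ratios on the 2 arrays mean that the same dye was brighter on both. Cy5 was the brighter one on both arrays for 15 of the 35 endothelial genes and the dimmer one for 4, beside 27.8% and 28.7% of all genes tested. On array 1 alone 26 of 35 had a ratio above 0 (49.9% of all genes), and on array 2 alone 15 of 35 (50.8% of all genes). The medians were 0.10 on array 1 and -0.12 on array 2, and 0.10 and -0.11 without Vwf. In a limma fit of Cy5 over Cy3, 0 of all genes tested passed the threshold (0%), while 986 had an unadjusted p below 0.05 (4.71%). Of the 35, 3 had an unadjusted p below 0.05 in that limma fit, namely Vwf (0.00029), Nos3 (0.016) and Aqp1 (0.045). Each of them had an adjusted p of 0.747. The mean level of the 2 pools of an array was higher on array 1 for 17 of the 35 genes, beside 51.3% of all genes. The sex of the pools changed together with the dyes, so the 2 cannot be told apart.

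A second probe was available for some genes and bears on how far a single probe can be read. The 35 genes had 49 probes, of which 45 were tested, and 10 genes had more than 1 tested probe. Over these 10 genes and both arrays, the brighter and the dimmer probe had the same sign in 10 of 20 cases. The same share was not taken over all 5165 genes with more than 1 tested probe, so the count has no background. Several of the ratios also lay near 0, where a sign says little, as with -0.01 and 0.03 at the dimmer Ushbp1 probe. The dimmer Vwf probe, at chr6:125542106-125542165 and designed on another transcript model, had ratios of 0.28 and -0.07. The brighter one, at chr6:125636551-125636610, had given 1.56 and -1.33, so the signs were alike and the sizes were not. The dimmer Vwf probe was dim in all pools, at 6.58, 6.86, 6.55 and 6.48. In the male control pool a share of 0.5 of its spots was well above background. Whether its low signal made its ratios smaller was not tested. The dimmer Kdr probe printed above, at chr5:76330395-76330454, stood at 10.77, 11.10, 10.76 and 10.43. There the female mutant was high and the male mutant low, with ratios of 0.33 and -0.33 in place of -0.09 and -0.17. For Nos3 the dimmer probe, at chr5:23889636-23889695, had 0.13 and -0.39, the same signs as the brighter one.

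The other pairs differed by less on array 1 than on array 2, apart from Flt1 and Cd34. Flt1 had -0.09 and 0.08 at the brighter probe, and 0.49 and -0.47 at a probe on another transcript model. The dimmer Ets1 probe had 0.18 and -0.13 where the brighter one had 0.08 and 0.43. Apold1, whose probes differed most in their mean, had -0.07 and -0.60 at its dimmer probe, and Sox17 had 0.11 and -0.30. The dimmer probes of Plvap, Cd34 and Ushbp1 all lay between -0.16 and 0.06 on both arrays. The mean of the probes in place of the brightest one left 11 genes above 0 on both arrays and 3 below.

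**Figure D4:**
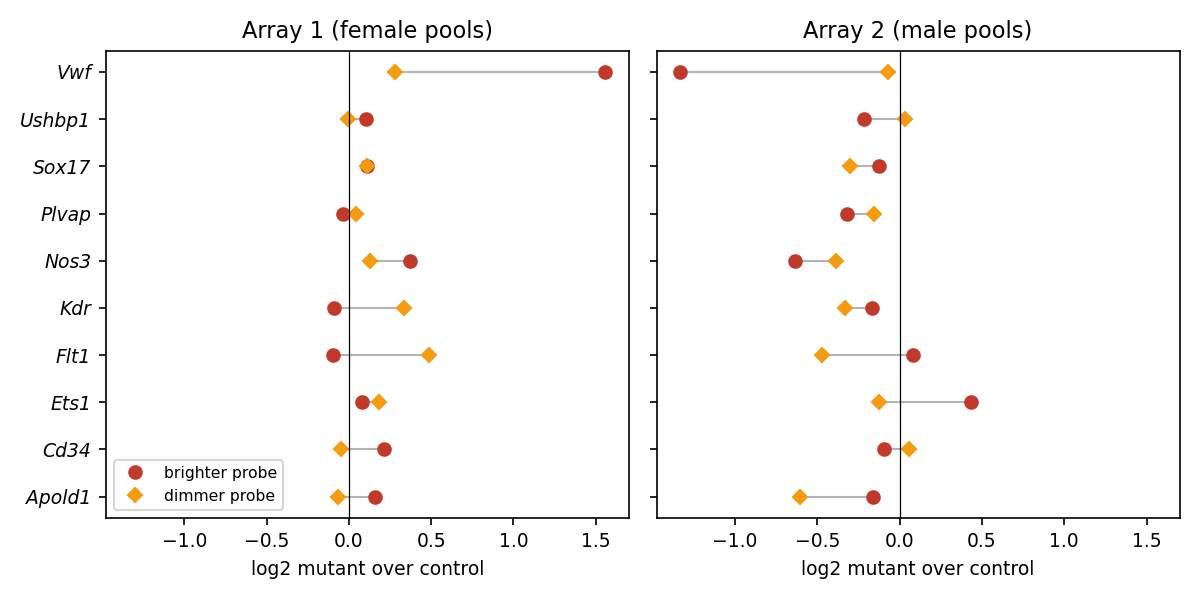
Log2 mutant over control ratio at the brighter (red circles) and the dimmer probe (orange diamonds) of the 10 endothelial genes with more than 1 tested probe, on array 1 (left) and array 2 (right), each pair joined by a line. Vwf has the longest line on both arrays, from 0.28 to 1.56 and from -0.07 to -1.33, and the Kdr and Flt1 probes lie on opposite sides of 0 on array 1. The dimmer Vwf probe had low levels, of 6.48 to 6.86.

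Other genes of vessels and of cells that enter them were read from fixed lists. Of 32 further endothelial genes 31 were tested, 10 of them with both ratios above 0 and 5 with both below. Their median was 0.03 (0.12 and -0.04 by array). None was called. The largest same-sign ratios were 0.65 and 0.29 for Gja5, a connexin of arteries, and -0.06 and -0.89 for Unc5b, a netrin receptor of arteries and tip cells. Aplnr, the apelin receptor, had 0.04 and 0.78, and Gata2, a transcription factor that blood progenitors also carry, had -0.28 and -0.38. As in the 35, Cy5 was brighter on both arrays more often than dimmer, for 12 genes and 4.

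The ligands that act on the endothelial receptors showed no common direction. Of 17 vascular ligands and co-receptors 16 were tested, with both ratios above 0 for 2 genes and below 0 for 5, and a median of 0.01 (-0.00431 and -0.06 by array). Vegfa, the main ligand of Kdr, had 0.09 and -0.29, and Vegfc, the ligand of Flt4, had -0.01 and -0.01. Angpt1, which activates Tek, had -0.14 and -0.36, while its antagonist Angpt2 had -0.12 and 0.05. Nrp1, a co-receptor for VEGF, had 0.41 and 0.17, and Kitl, the ligand of Kit, had -0.21 and -0.24. None of the list was called.

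Mural cells, which wrap vessels as pericytes and smooth muscle, were read with 13 genes, all tested. Both ratios were above 0 for 7 genes and below 0 for 1, and the median was 0.12 (0.15 and 0.07 by array). Mcam, an adhesion protein of endothelium and pericytes, had 0.71 and 0.30, and Kcnj8, a potassium channel subunit of pericytes, had 0.15 and 0.80. Des, the intermediate filament of muscle and pericytes, had 0.33 and 0.25. Pdgfrb, the receptor that recruits pericytes, had 0.09 and -0.05. None of the 13 was called.

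Genes of leukocytes and erythroid cells, which the vessels carry, mostly had ratios above 0, unlike the platelet genes above. No gene of either list was called. Of 14 tested leukocyte genes of 15, 11 were above 0 on both arrays and 0 below, and the median was 0.43 (0.37 and 0.51). Of 14 tested erythroid genes of 15, 12 were higher and 0 lower, with a median of 0.65 (0.87 and 0.26). The globin genes Hba-a1 and Hba-a2 among them are near-identical copies whose probes can share transcripts. The summed linear level of the leukocyte genes was 32939 and 37922 in the female control and mutant and 43016 and 70389 in the male ones. Itgam, the brightest probe of the list, made up most of it. Without it, a sum taken after its level was seen, the other 13 genes gave 11537 and 16954 in the female and 11436 and 17219 in the male pools (1.47-fold and 1.51-fold). The summed level of the erythroid genes was 254513 and 676820 in the female and 484992 and 617044 in the male pools. The summed level of the 35 endothelial genes, in the same order, was 107689, 122258, 114195 and 112708, which is 1.14-fold and 0.987-fold mutant over control. Over all genes tested the summed level was 1.04-fold on array 1 and 0.984-fold on array 2. Pecam1, Cd34, Aqp1 and Lyve1 are also expressed in blood cells or macrophages, and the part of these cells in their ratios was not tested.

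Genes of the ureter wall around the vessels had medians below 0. Of 10 tested epithelial genes 2 were above 0 on both arrays and 5 below (median -0.16, or -0.14 and -0.24 by array). The uroplakin genes Upk3a, with 1.45 and 1.24 (adjusted p = 0.0708 in limma), and Upk1b, with 0.49 and 0.54, were the higher ones. Of 8 mesenchymal genes 0 were above and 6 below (median -0.29, or -0.15 and -0.42 by array). None of these was called either. The endothelial median of -0.01 lay between these and the medians of the leukocyte and erythroid genes.

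**Figure D5:**
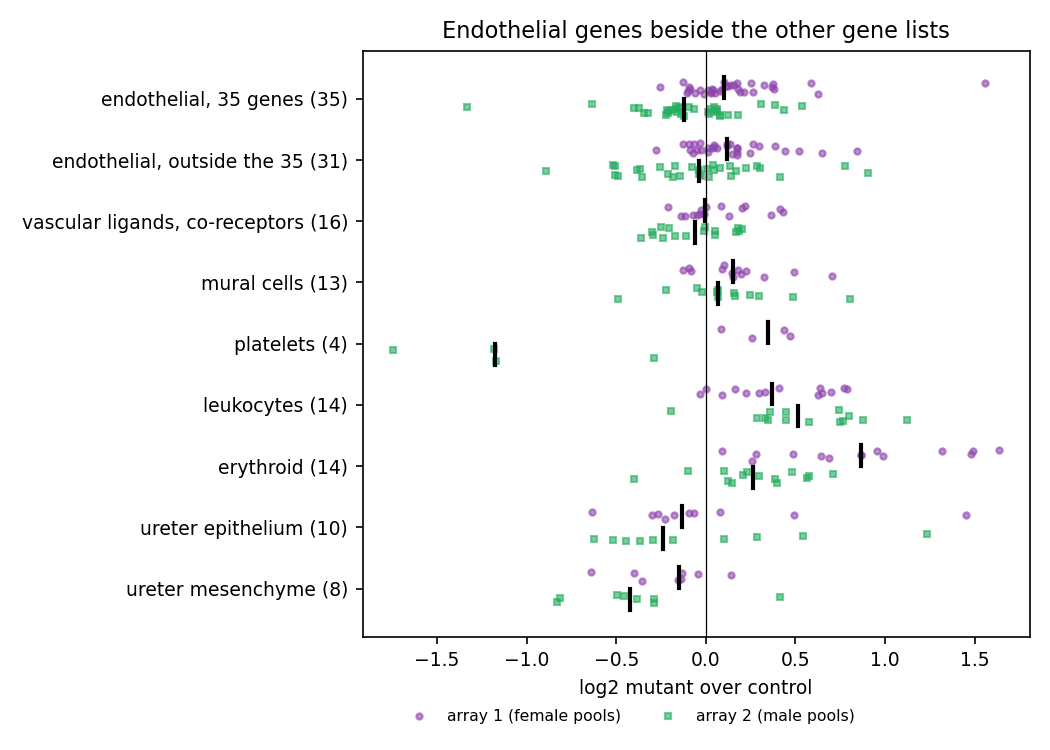
Log2 mutant over control ratios of the endothelial genes and of 8 other lists, with 1 point per tested gene, purple circles for array 1 and green squares for array 2, and black bars at the medians. The number of genes is in parentheses. The endothelial medians lie at 0.10 and -0.12, whereas the leukocyte and erythroid medians lie above 0 and those of ureter mesenchyme below 0 on both arrays.

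Erg, Fli1 and Ets1 bind DNA at the core letters GGAA, so the promoters of the endothelial genes were searched for these letters and for longer forms of them. RefSeq promoters of the GRCm38.p6 assembly were found for 19 of the 35 genes, with 24 starts, and the 250 bases before each start were searched on both strands. GGAA, read on the other strand as TTCC, was present in 22 of 24 (91.7%), beside 93.4% of the 32851 promoters in all, with a mean of 4.08 and 2.91 matches per promoter. CAGGAAG, a longer form that contains GGAA, was present in 9 of 24 (37.5%) and in 10.8% of all promoters. CCGGAAG, another form that contains it, was in 0 of 24 and in 6.91% of all. The SOX-type letters AACAAT were in 5 (20.8%), beside 9.42%, and ACAAAG in 4 (16.7%), beside 16.5%. The median GC content was 54.2% and 52.4%. Such matches describe letters and say nothing about binding.

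The promoters of Cldn5 and of the first Egfl7 start are shown as examples. Both genes were among the 6 of the 35 with both mutant pools above both controls. Of those 6, Clec14a and Tek also had a promoter, not shown, with 6 and 2 matches to GGAA. The Cldn5 and Egfl7 promoters shown differ in the letters searched, and 2 picked promoters do not stand for the rest. That of Cldn5, at chr16:18776597-18776846 on the plus strand, held 0 matches to GGAA. That of the first Egfl7 start, at chr2:26580833-26581082 on the plus strand, held 5, of which 2 lay within CAGGAAG. The other Egfl7 starts, not shown, held 3 and 1 matches to GGAA, of which 1 and 0 lay within CAGGAAG. Capitals mark these core letters on either strand.
Cldn5 promoter: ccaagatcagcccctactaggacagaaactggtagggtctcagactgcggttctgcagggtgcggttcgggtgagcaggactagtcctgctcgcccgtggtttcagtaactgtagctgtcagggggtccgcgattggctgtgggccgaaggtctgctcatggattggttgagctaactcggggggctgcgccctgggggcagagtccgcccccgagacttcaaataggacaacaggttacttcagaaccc
Egfl7 promoter: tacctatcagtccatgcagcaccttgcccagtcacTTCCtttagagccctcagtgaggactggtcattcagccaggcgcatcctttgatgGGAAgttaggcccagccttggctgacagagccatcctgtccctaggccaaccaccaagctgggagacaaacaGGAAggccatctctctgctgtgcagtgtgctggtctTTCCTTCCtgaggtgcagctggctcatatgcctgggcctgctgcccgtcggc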

How the data were processed

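Total RNA of the 4 pools (150 ng labelling input per the labels' protocols) was hybridised to 2 arrays of 1 slide. The submitters' processing notes name Agilent Feature Extraction 10.7.3.1. The mean and background signals are unnormalised intensity values, per the file headers, and the deposited processed signals are background-subtracted and dye-normalised intensity values. The authors' deposited table gives each probe a score on each array, which is a linear fold with a sign and runs mutant over control (correlation with the processed signals 0.973 and 0.991, column medians 1), whose centring is unknown.

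In limma 3.58.1 (R 4.3.3), normexp background correction (offset 50) was followed by loess within arrays (span 0.3, weight 0 for control spots). Outlier-flagged spots (3.35% and 3.05%) were dropped, the rest averaged by probe, and array 2 turned. A probe was tested if a share above 0.5 of its spots was well above background in the mutant pools or in the control pools of both arrays, which left 27493 of 39429 probes, and a gene took its brightest tested probe. Names were updated through RefSeq accessions for 28328 probes. Genes were tested with lmFit and eBayes against 0 (1 residual and 6.32 prior degrees of freedom), adjusted by Benjamini-Hochberg, and the fit was tested on simulated data. Levels followed Aquantile normalisation. Where nothing says that pools came from separate litters, p-values reflect only how far the 2 arrays differ, within a gene and over all genes tested. With 6.32 prior and 1 residual degree of freedom, the spread over all genes weighs more. The number of arrays limits the precision.

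The endothelial genes and the other lists were chosen with earlier results of these data known, and 1 further platelet gene is not reported here. The genes described with all 4 levels were any called, the 8 with the largest mean ratio of like sign, the 4 with the largest opposed difference, Pecam1, Cdh5, Kdr, Tek, and Apold1, whose probes differed most. Plvap was added after its values were seen. Each choice of processing was changed in turn, as the closing section reports.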

Additional observations from a re-analysis of the deposited data

Results flagged for a closer look

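Of the 35 endothelial genes, Vwf and Nos3 were at least 1.2-fold higher in the mutant on the array with female pools and at least 1.2-fold lower on the array with male pools. For Vwf the ratios were 1.56 and -1.33, a difference of 2.89 on the log2 scale. For Nos3 they were 0.37 and -0.63, a difference of 1.01. Of all genes tested 3.52% were opposed by that much. The difference between the sexes itself was not tested, since sex and dye change together, and in the limma fit of Cy5 over Cy3 the adjusted p of both genes was 0.747.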

How the results depend on the processing

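None of the 35 endothelial genes was called in limma under any alternative run. Plvap and Apold1 were not followed one by one through these runs. The mean ratios of the other 14 genes described with all 4 levels kept their sign under each change of processing run. With 1 array left out those of Vwf, Nos3, Aqp1, Rasip1 and Cdh5 turned, as their opposite ratios require. The mean of Cldn5 ran from 0.44 to 0.62 and that of Erg from -0.62 (authors' deposited table) to -0.25. The number of all genes called, 6 in the values reported, was 11 with the processed signals, 11 with outlier-flagged spots kept, and 12 with probes well above background in all 4 pools. It was 0 in limma after median centring and 0 without the filter on dim probes, with 853 and 1076 genes at an unadjusted p below 0.05. With no replicate block, which takes the 4 pools as separate samples in place of the pairing of mutant and control on an array, it was 0 in limma, with 529 at an unadjusted p below 0.05. Endothelial genes higher on both arrays were 7 with the processed signals and 3 after median centring, and those lower on both were 15 after median centring, 3 with the mean of the probes and 8 in the authors' deposited table. Genes called for Cy5 over Cy3 were 52 in limma after median centring, and endothelial genes with Cy5 lower on both arrays were 1 in the authors' deposited table. After median centring the median ratio was -0.13 for vascular ligands, 0.0319 for mural cells and -0.28 for ureter epithelium, and the leukocyte median was 0.54 with the processed signals. By single array the medians ran from -0.0609 to -0.00431 for vascular ligands, from -0.24 to -0.14 for ureter epithelium, from -0.42 to -0.15 for ureter mesenchyme and from -0.12 to 0.10 for the endothelial genes. The causes were not tested. The 2 arrays limit what can be seen, since the 95% bounds of an endothelial gene lay a median of 0.36 from its mean.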
